A study of Mus musculus with 16 samples.

Results

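Glycolysis was followed through 10 genes, the glucose transporter gene Slc2a1 and the enzyme genes Hk2, Gpi1, Pfkl, Aldoa, Gapdh, Pgk1, Eno1, Pkm and Ldha. They were taken by symbol from the pathway, with no measured value in the rule but with earlier results of these data known. All 10 were found among the 45777 genes listed for each tumor. The RNA came from 16 whole B16F10 tumors, which grow from a mouse melanoma line injected into syngeneic mice. Lean hosts were C57BL/6J mice and obese hosts were leptin-deficient C57BL/6J-ob/ob mice, all 6 weeks old when the cells were injected. In each host, 4 pre-therapy tumors were compared with 4 tumors collected after etoposide (ETS), a topoisomerase II poison that causes DNA breaks, given as 5 daily intraperitoneal injections of 20 mg/kg. No vehicle injection and no collection day of the pre-therapy mice is stated. The ETS tumors were collected after the course of injections, so drug and time cannot be told apart. Obesity here stands on 1 genetic cause, the loss of leptin. The labels do not say that each tumor came from a mouse of its own, so p-values measure the spread between these samples.

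Glycolysis splits glucose into pyruvate in the cytosol and yields ATP without oxygen. Glucose enters through transporters, of which Slc2a1 encodes GLUT1, and is trapped by hexokinases such as that of Hk2. Gpi1, Pfkl and Aldoa encode the enzymes that rearrange, phosphorylate and cleave the sugar, Gapdh, Pgk1, Eno1 and Pkm those that turn the resulting trioses into pyruvate, and Ldha the lactate dehydrogenase subunit that favours the step from pyruvate to lactate. Tumors are known for high glycolysis even where oxygen is present, and many of these genes are classical targets of hypoxia-inducible factors and of Myc. Gapdh is also in wide use as a reference gene for expression measurements.

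The libraries summed to between 47199949 and 61655287 gene counts each. All 8 melanocyte markers were counted in every tumor, and their summed TPM (a unit that corrects counts for gene length and library size, used here to compare genes) ranged from 9129 to 22038. Before therapy every obese tumor (9129 to 13433) lay below every lean tumor (17978 to 22038), with 4 of the 8 markers called lower in obese tumors, and the part of this shift in the results was not tested. Other cells differed between groups: the summed TPM of 8 macrophage markers had medians of 1771 and 297 in lean tumors before and after ETS and of 169 and 762 in obese tumors, and that of 7 fibroblast markers had medians of 490, 72.1, 96.2 and 435. In bulk RNA, fewer cells of a type and less RNA per cell cannot be told apart. The 37 mitochondrially encoded genes took 9.30 to 12.2% of TPM in lean tumors before therapy and 18.5 to 24.1% after ETS, against 8.01 to 11.4% and 9.57 to 22.2% in obese tumors. T and NK cell markers summed to 44.8 to 84.6 TPM in lean pre-therapy tumors and to at most 4.36 TPM in all others. Erythroid markers summed to 395 to 1843 TPM in lean and 2901 to 40765 TPM in obese tumors before therapy, and to at most 0.390 and 134 TPM after ETS. Obese pre-therapy tumor 4 stood apart by its hemoglobin and other erythroid markers (40765 TPM, against 395 to 4636 in the other pre-therapy tumors), and obese ETS tumor 4 by its fibroblast markers (2133 TPM, against 238 to 554 in the other obese ETS tumors). Neutrophil markers summed to 67.6 TPM in the former and 83.3 TPM in the latter, against at most 11.9 TPM in all other tumors. Obese ETS tumor 4 also had the most macrophage markers (1508 TPM) and the fewest melanocyte markers (9440 TPM) of the obese ETS tumors. Its mitochondrially encoded share (9.57%) was the lowest of that group. The part of both tumors in the results was not tested. With both left out, the members called were as many in each comparison, but some values without a call changed sign. The difference between hosts in the ETS effect on Slc2a1 became 0.12, and that between hosts after ETS in Gapdh became -0.13, both on the log2 scale. Over all genes, the calls between hosts after ETS went from 910 to 216.

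On the mouse assembly GRCm38.p6 the genes lie on 6 chromosomes, as follows by gene identifier and strand. Slc2a1 (20525) is at chr4:119108745-119137330 and Eno1 (13806) at chr4:150236708-150248879, both on the plus strand. Hk2 (15277) is at chr6:82725025-82774454 and Gapdh (14433) at chr6:125161852-125166467, both minus. Chromosome 7 holds Gpi1 (14751) at chr7:34201327-34230336 and Aldoa (11674) at chr7:126795234-126800994, both minus, and Ldha (16828) at chr7:46842274-46855627, plus. Pfkl (18641) is at chr10:77986947-78009807 (minus), Pkm (18746) at chr9:59656576-59679372 (plus) and Pgk1 (18655) at chrX:106187100-106203699 (plus). Exons of Slc2a1, Gpi1, Aldoa and Gapdh overlap a gene of the opposite strand (Gm12868, Gm26762, Fam57b and Iffo1), and those of Pkm overlap Gm49759. The strand setting of the counting is not given in the sources used here, so reads of these pairs cannot be told apart.

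By TPM, the genes of the lower pathway, from cleavage to lactate, were among the most abundant RNAs of these tumors. Gapdh ranked 10th of 45777 genes by mean TPM (8290.5), followed by Eno1 (7804) and Aldoa (5793), which ranked 11th and 12th. Pkm averaged 4443 TPM, Ldha 3849 TPM, Pgk1 3561 TPM and Gpi1 1837 TPM, all within the first 64 genes. Pfkl (347 TPM), Slc2a1 (208 TPM) and Hk2 (88.6 TPM) were the lowest of the 10, so the transporter and the first phosphorylating enzymes stood far below the enzymes that follow them. The 10 genes together made up 3.06 ± 0.34% of TPM in lean pre-therapy tumors, 3.49 ± 0.10% in lean ETS tumors, 4.12 ± 0.39% in obese pre-therapy tumors and 3.81 ± 0.77% in obese ETS tumors (SD, n = 4 each).

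The level of Gapdh depends on how reads of its copies were counted. The GENCODE annotation of the same assembly holds 188 other genes, of which 174 are processed pseudogenes, with a transcript that matches Gapdh over at least 300 bases at 90% identity or more. Of these, 161 were in the table, and their counts summed to 135 to 147% of the Gapdh count itself, with Gm7336 alone at 22.3%. How reads that match several of these loci were assigned is not given in the sources used here, so the absolute level of Gapdh is uncertain. Copies of Pgk1 summed to 13.7 to 15.4% of its count, copies of Eno1 (mostly Gm4735 and Eno1b) to 6.72 to 8.31%, copies of Pkm to 0.969 to 1.33%, and those of Aldoa and Ldha to at most 0.074%, while none with counts was found for Slc2a1, Hk2, Gpi1 and Pfkl. Adding each gene's copies to its own counts left 9, 0, 4, 5 and 0 members called in the comparisons below, the same numbers as without them.

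The promoters are shown for Ldha, Pgk1 and Gapdh, which rose in lean tumors after ETS, and for Hk2, which fell there. Each line gives the 250 bases before the start of the RNA (RefSeq, GRCm38.p6), 5′ to 3′ on the strand of the gene, with matches on either strand to ACGTG or GCGTG, the core bound by hypoxia-inducible factors, in capitals; capitals reading CACGTG hold ACGTG on both strands. The windows lie at chr7:46845554-46845803 (plus strand, the first of 2 listed starts), chrX:106186850-106187099 (plus), chr6:125165774-125166023 (minus) and chr6:82774455-82774704 (minus).
Ldha: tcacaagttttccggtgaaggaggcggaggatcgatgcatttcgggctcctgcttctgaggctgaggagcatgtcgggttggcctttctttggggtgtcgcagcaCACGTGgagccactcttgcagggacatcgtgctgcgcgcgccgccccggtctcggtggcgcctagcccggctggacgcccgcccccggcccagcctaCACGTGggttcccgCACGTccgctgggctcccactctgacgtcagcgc
Pgk1: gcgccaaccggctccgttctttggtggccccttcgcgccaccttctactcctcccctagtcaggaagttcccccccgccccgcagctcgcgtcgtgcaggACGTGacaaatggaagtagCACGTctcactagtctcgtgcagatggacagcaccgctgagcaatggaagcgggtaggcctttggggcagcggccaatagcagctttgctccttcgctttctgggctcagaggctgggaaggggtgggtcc
Gapdh: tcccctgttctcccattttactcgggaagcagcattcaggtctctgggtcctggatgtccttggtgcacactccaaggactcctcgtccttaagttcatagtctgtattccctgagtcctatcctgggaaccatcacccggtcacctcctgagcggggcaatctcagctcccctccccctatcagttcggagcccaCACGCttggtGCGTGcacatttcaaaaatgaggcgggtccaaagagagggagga
Hk2: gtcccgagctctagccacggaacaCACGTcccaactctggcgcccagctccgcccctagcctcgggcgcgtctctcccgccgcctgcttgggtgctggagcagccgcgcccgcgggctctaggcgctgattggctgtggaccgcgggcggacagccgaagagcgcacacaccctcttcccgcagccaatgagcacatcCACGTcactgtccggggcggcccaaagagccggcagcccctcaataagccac
Counted over the full 300-base window, which runs 50 bases past the start, this Ldha promoter held 5 matches to ACGTG and 2 to GCGTG, among them 2 E-boxes (CACGTG). Pgk1 and Hk2 each held 2 matches to ACGTG, Gapdh held 1 to ACGTG and 2 to GCGTG, and Gpi1 held neither motif. Slc2a1 held 1 of each, Pfkl 1 to GCGTG, and Eno1 2 to GCGTG at each of 3 listed starts. Aldoa held neither motif at its first listed start and 1 to ACGTG at starts 2 and 3. Pkm held neither at its first start and 2 to ACGTG at start 2. The second start of Ldha held 2 to GCGTG, 0 to ACGTG and 0 E-boxes. Of 32851 mouse promoters of this length, 43.8% held at least 1 of the 2 motifs, 19.6% held ACGTG, 32.4% GCGTG and 7.15% CACGTG. Hk2 and Pgk1 carried the same number of matches. A match is a run of letters and not a measured binding site.

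The first comparison asks how glycolysis genes in tumors of lean mice differed after ETS. Of the 10 genes, 8 rose and 1 fell (edgeR's quasi-likelihood test on counts, adjusted p under 0.05 over 16209 tested genes). Gpi1 rose the most (1.74-fold), Pkm the least of the 8 (1.32-fold), Hk2 fell to 0.713 of its level, and Slc2a1 did not pass the test. Among all tested genes, 43.7% passed, 21.0% higher and 22.7% lower. The median log2 fold change was 0.56 over the 10 genes and -0.015 over all tested genes. Levels below are CPM, counts relative to a library size scaled by TMM (trimmed mean of M-values), given for tumors 1 to 4 in that order, and log2 fold changes compare groups on that scale.

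At the entry of the pathway, Slc2a1 stood at 217, 156, 179 and 242 CPM before therapy and at 199, 194, 256 and 261 CPM after ETS in lean tumors. The groups overlapped, and the log2 fold change of 0.20 ± 0.26 (SE; adjusted p = 0.560) was smaller than its own error. Hk2, whose hexokinase traps glucose in the cell, stood at 275, 268, 339 and 310.5 CPM before therapy and at 198, 145, 273 and 234 CPM after ETS. Only ETS tumor 3 reached into the pre-therapy range, and the log2 fold change was -0.49 ± 0.17 (SE; adjusted p = 0.0315). It had the highest adjusted p of the 9 calls and was lost without a filter on low counts (adjusted p = 0.0609) and when only the lean tumors entered the fit (adjusted p = 0.0521). It was also lost without pre-therapy tumor 3 or 4 or ETS tumor 1 or 2, where its adjusted p was 0.0659 to 0.0998.

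The enzymes of the upper pathway rose. Gpi1, which turns glucose 6-phosphate into fructose 6-phosphate, stood at 2154, 1291, 1369.6 and 1679 CPM before therapy and at 2811, 3247, 2732 and 2536 CPM after ETS. Every ETS tumor lay above every pre-therapy tumor, and the log2 fold change was 0.80 ± 0.20 (SE; adjusted p = 0.00494). Pfkl, the liver form of phosphofructokinase, which catalyses the committed step, went from 676, 403, 530.2 and 549 to 835, 983, 886 and 952 CPM, again without overlap, with a log2 fold change of 0.76 ± 0.16 (SE; adjusted p = 0.00134). Aldoa, the aldolase that cleaves the sugar, went from 4818, 3054, 3343 and 3691 to 5237, 6413, 5049.8 and 5021 CPM. Its groups did not overlap, pre-therapy tumor 1 lay close to the lowest ETS tumor, and the log2 fold change was 0.54 ± 0.17 (SE; adjusted p = 0.0188). The call of Aldoa was lost without pre-therapy tumor 2 or 3 or ETS tumor 2 (adjusted p of 0.0562 to 0.0670).

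The enzymes of the lower pathway rose as well. Gapdh, which oxidizes glyceraldehyde 3-phosphate, stood at 5483, 3840.3, 4029 and 4049 CPM before therapy and at 6549.9, 8064, 6174 and 6549 CPM after ETS in lean tumors. Pre-therapy tumor 1 was the highest of its group but still below every ETS tumor, and the log2 fold change was 0.65 ± 0.16 (SE; adjusted p = 0.00440). Pgk1, which makes the first ATP of the payoff phase, went from 3074, 2213, 2406 and 2485 to 3759.8, 4007, 3675 and 3697 CPM, with separate groups and a log2 fold change of 0.57 ± 0.11 (SE; adjusted p = 0.00102). Eno1, the enolase, went from 6966, 4744, 4923 and 5453 to 8887, 9587, 7524 and 7202 CPM, also without overlap, with a log2 fold change of 0.59 ± 0.14 (SE; adjusted p = 0.00436). Pkm, the pyruvate kinase found in most tissues and tumors, went from 6058, 4159, 4595 and 4776 to 6590.3, 7118, 6131 and 6001 CPM. Its pre-therapy tumor 1 lay within the ETS range, and the log2 fold change was 0.40 ± 0.12 (SE; adjusted p = 0.0136), a call lost without pre-therapy tumor 2 (adjusted p = 0.0533). Ldha went from 3355, 2259, 2444 and 2539.8 to 3541, 4044, 3310.4 and 3462 CPM, with the same tumor overlapping, and rose by 0.44 ± 0.13 (SE; adjusted p = 0.0113). In all, 6 of the 10 genes had separate CPM ranges in lean tumors, where 41.2% of all tested genes did.

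**Figure D1:**
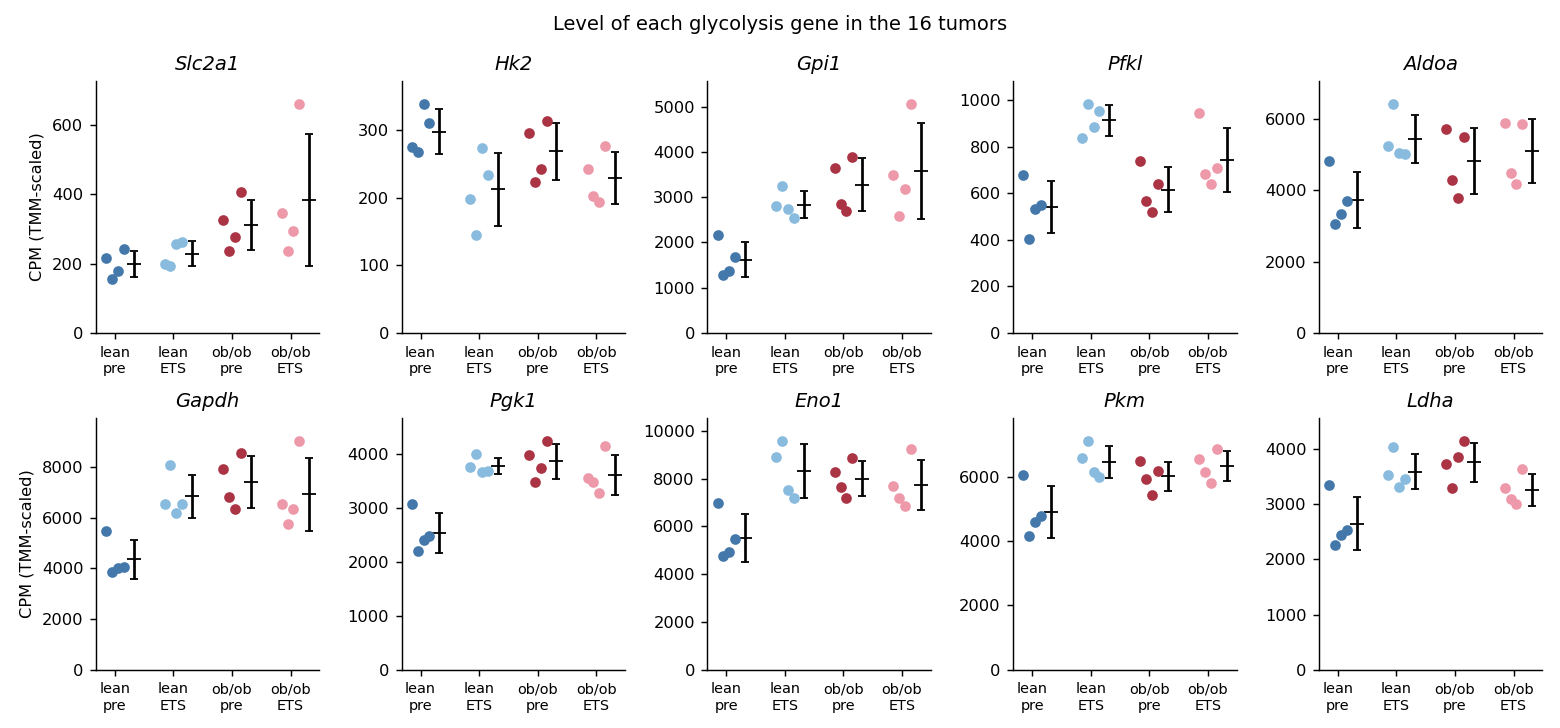
CPM (counts relative to the TMM-scaled library size, linear axis from 0) of the 10 genes in each of the 16 tumors; points are tumors 1 to 4 of each group from left to right (pre, pre-therapy; ETS, after etoposide), and the bar beside them is the mean ± SD (n = 4). In 6 genes (Gpi1, Pfkl, Aldoa, Gapdh, Pgk1 and Eno1) every lean ETS tumor lies above every lean pre-therapy tumor, while in no gene do the ob/ob groups separate.

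In obese tumors, the same question gave 0 calls among the 10 genes, although 40.1% of all tested genes passed. None had an unadjusted p under 0.05, and none was called by edgeR's exact test, DESeq2, limma-voom or limma on TPM. Their log2 fold changes had a median of 0.015, close to the 0.0066 of all tested genes. Slc2a1 had the largest value, from 325, 237, 277 and 406 CPM before therapy to 346, 236, 293 and 659.8 CPM after ETS, a log2 fold change of 0.30 ± 0.26 (SE; adjusted p = 0.380). It rested on obese ETS tumor 4, which stood apart above by several marker sums, without which the value was -0.090. Gpi1, from 3648, 2847, 2699 and 3888 to 3485, 2589.6, 3189.6 and 5059 CPM (0.13 ± 0.20 SE, adjusted p = 0.636), was likewise highest in this tumor and turned to -0.079 without it. Gapdh stood at 7924, 6805, 6344 and 8543 CPM before therapy and at 6532, 5759, 6357 and 9033 CPM after ETS in obese tumors, a log2 fold change of -0.10 ± 0.16 (SE; adjusted p = 0.662). The 2 groups were interleaved for Gapdh, with the highest and the lowest tumor both after ETS. Pgk1 went from 3986, 3495, 3755 and 4255 to 3563, 3479.7, 3291 and 4149 CPM (-0.10 ± 0.11 SE, adjusted p = 0.523), and Eno1 from 8280.3, 7635, 7201 and 8868 to 7684, 7194, 6862 and 9229.7 CPM (-0.046 ± 0.14 SE). Ldha, from 3729.6, 3302, 3865 and 4156 to 3293, 3093, 2999.5 and 3651 CPM, had the lowest value of the lower pathway at -0.21 ± 0.13 (SE; adjusted p = 0.204). Of the remaining genes, Pkm went from 6494, 5926, 5427 and 6183 to 6538, 6131, 5814 and 6863 CPM (0.077 ± 0.12 SE, adjusted p = 0.643) and Aldoa from 5722, 4293, 3769.9 and 5476 to 5878, 4476, 4185 and 5854 CPM (0.082 ± 0.17 SE, adjusted p = 0.740). Pfkl went from 739, 567, 518 and 638 to 943, 684, 637 and 708 CPM (0.27 ± 0.16 SE, adjusted p = 0.177), the closest to a call among the enzymes of the upper pathway. Hk2, from 295, 223, 243 and 313 to 243, 202, 194 and 277 CPM, had the same sign as in lean tumors (-0.23 ± 0.17 SE, adjusted p = 0.309). The ranges of both groups overlapped for every one of the 10 genes, where 34.2% of all tested genes had separate ranges.

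Whether ETS acted differently in the hosts was tested as the difference between both effects, lean minus obese. It was positive and passed the test for 4 genes, Gapdh (0.75 ± 0.23 SE, adjusted p = 0.0330 on the log2 scale), Pgk1 (0.67 ± 0.16 SE, adjusted p = 0.00960), Ldha (0.65 ± 0.18 SE, adjusted p = 0.0216) and Eno1 (0.63 ± 0.20 SE, adjusted p = 0.0435). Over all tested genes 16.5% passed, and 6.37% with a higher value in lean tumors. Gpi1 had a difference of similar size, 0.67 ± 0.28 (SE), but with an adjusted p of 0.120 it was not called, nor were Pfkl (0.49 ± 0.22), Aldoa (0.46 ± 0.24) and Pkm (0.32 ± 0.17). For Hk2 (-0.26 ± 0.24) and Slc2a1 (-0.10 ± 0.37) the sign was negative and the value within about its error, and for Slc2a1 it turned positive (0.11) on median-centred TPM. The calls were sensitive to single tumors, since leaving out 1 of the 16 gave 1 to 6 called members. Pgk1 passed in all 16 such fits (adjusted p from 0.00214 to 0.0251) and Ldha in 15 of 16 (0.00294 to 0.0502, the highest without lean pre-therapy tumor 2). Gapdh passed in 6 of 16 (0.00739 to 0.0757) and Eno1 in 5 of 16 (0.0102 to 0.0938), with the same direction in each. Gapdh was lost without lean pre-therapy tumor 2, 3 or 4, lean ETS tumor 1 or 2, obese pre-therapy tumor 1 or 4, or obese ETS tumor 1, 2 or 3, and Eno1 without any of these or obese pre-therapy tumor 2. The median difference was 0.56 over the 10 genes and 0.052 over all tested genes.

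**Figure D2:**
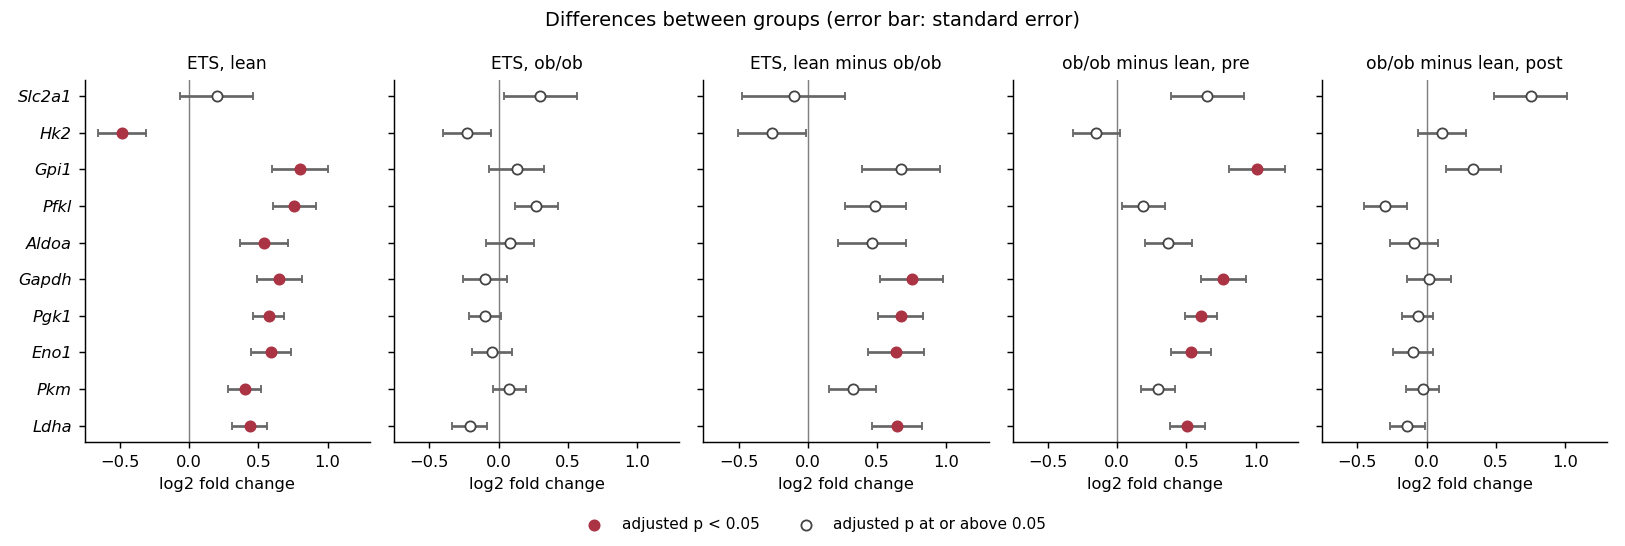
Log2 fold change of the 10 genes (x axis, error bar: SE) in the 5 comparisons, from TMM-scaled counts; filled points have an adjusted p under 0.05. The lean ETS panel holds 9 filled points, 8 to the right and Hk2 to the left, and the ob/ob ETS and post-therapy panels hold none; the ETS panels and the ob/ob-against-lean panels share tumors.

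Before therapy, obese tumors were compared with lean ones to see whether hosts already differed. Here 5 of the 10 genes were higher in obese tumors, and none was lower. Gpi1 was 2.01-fold higher (1.01 ± 0.20 SE, adjusted p = 0.00175 on the log2 scale), Gapdh 1.70-fold (0.77 ± 0.16 SE, adjusted p = 0.00243), Pgk1 1.52-fold (0.61 ± 0.11 SE, adjusted p = 0.00112), Eno1 1.45-fold (0.53 ± 0.14 SE, adjusted p = 0.0124) and Ldha 1.42-fold (0.51 ± 0.13 SE, adjusted p = 0.00784). Of all tested genes 26.3% passed, 13.3% higher in obese tumors, and the median log2 difference was 0.52 over the 10 genes and 0.019 over all tested genes. All of these 5 except Ldha had separate ranges: Pgk1, for example, stood at 3074, 2213, 2406 and 2485 CPM in lean and at 3986, 3495, 3755 and 4255 CPM in obese tumors. Ranges were separate for 30.4% of all tested genes. Slc2a1 (0.65 ± 0.26 SE, adjusted p = 0.0821), Pkm (0.29 ± 0.12 SE, adjusted p = 0.0813) and Aldoa (0.37 ± 0.17 SE, adjusted p = 0.129) missed the threshold, and Pfkl (0.19 ± 0.16) and Hk2 (-0.15 ± 0.17) stayed near their errors. Without lean pre-therapy tumor 1, Aldoa and Pkm passed as well (adjusted p = 0.0350 and 0.0109). Slc2a1 was called with only the pre-therapy groups in the fit (adjusted p = 0.0298), on median-centred TPM (0.0350) and with a replicate block (0.00755). With limma-voom, which weights samples, Slc2a1, Pkm and Aldoa were called too, for 8 in all.

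After ETS, none of the 10 genes was called between obese and lean tumors, and 5.61% of all tested genes were. Slc2a1 was the furthest, 346, 236, 293 and 659.8 CPM in obese against 199, 194, 256 and 261 CPM in lean ETS tumors, with a log2 difference of 0.75 ± 0.26 (SE; adjusted p = 0.0946) and an unadjusted p of 0.0118, the only one of the 10 under 0.05. DESeq2 called it (adjusted p = 0.0404), edgeR called it without obese ETS tumor 2 (adjusted p = 0.0390), and without obese ETS tumor 4 the difference was 0.36. Of the genes called before therapy, Gpi1 had a log2 difference of 0.34 ± 0.20 (SE; adjusted p = 0.307) after ETS, which was 0.13 without obese ETS tumor 4. Gapdh averaged 6920.2 ± 1447 CPM in obese and 6834 ± 838 CPM in lean ETS tumors (SD), and Pgk1 3621 ± 370.3 and 3785 ± 152 CPM. The lean effect of ETS and the difference before therapy share the 4 lean pre-therapy tumors, so the 2 sets of calls are not independent. Seen by group, these 4 tumors were the lowest of all groups by mean CPM for 9 of the 10 genes, Hk2 being the exception, with its highest mean there (298 ± 33.0 CPM). Gapdh, Pgk1 and Gpi1 had separate ranges between lean pre-therapy tumors and the next group, and no other neighbours in the order of group means were separate for any of the 10 genes.

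The size of the lean effect depended on the scaling. TPM sums to the same total in every tumor, and the mitochondrially encoded share above leaves less of it for other genes. Against TMM-scaled counts, the median of all tested genes shifted on the log2(TPM + 1) scale by -0.35 in the lean ETS effect, -0.26 in the host difference, -0.13 before therapy and 0.13 after ETS, and by -0.094 in obese tumors. With mitochondrially encoded genes left out of TPM, the shifts were -0.17, -0.19, -0.13, 0.050 and 0.015 in the same order. The cause of the shifts was not tested. On log2(TPM + 1), only Pfkl (0.41) rose and only Hk2 (-0.88) fell in lean tumors, where 1351 and 7281 of the 16209 tested genes did. Gpi1 (0.45) and Gapdh (0.28) kept their direction without passing, and Slc2a1 turned to -0.17. None of the 10 genes then passed for the host difference, although all 4 called genes stayed positive, between 0.36 and 0.49. Over all tested genes, 228 passed there with a higher value in lean tumors and 2239 with a lower one. With the median gene set equal in each tumor, TPM gave 8 genes higher in lean tumors and 6 called in the host difference. Over all tested genes, 6654 rose in lean tumors on that scale, and 3424 passed with a higher host difference. With mitochondrially encoded genes left out of TPM it gave 7 (6 higher, 1 lower) and 1. Over all genes, 2204 then rose and 5076 fell in lean tumors, and 351 passed with a higher host difference. Leaving mitochondrially encoded genes out of the counts changed no number of calls (9, 0, 4, 5 and 0). The comparison before therapy gave 4 to 6 called members under these scalings, where 1127 to 3532 of all tested genes were higher in obese tumors.

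**Figure D3:**
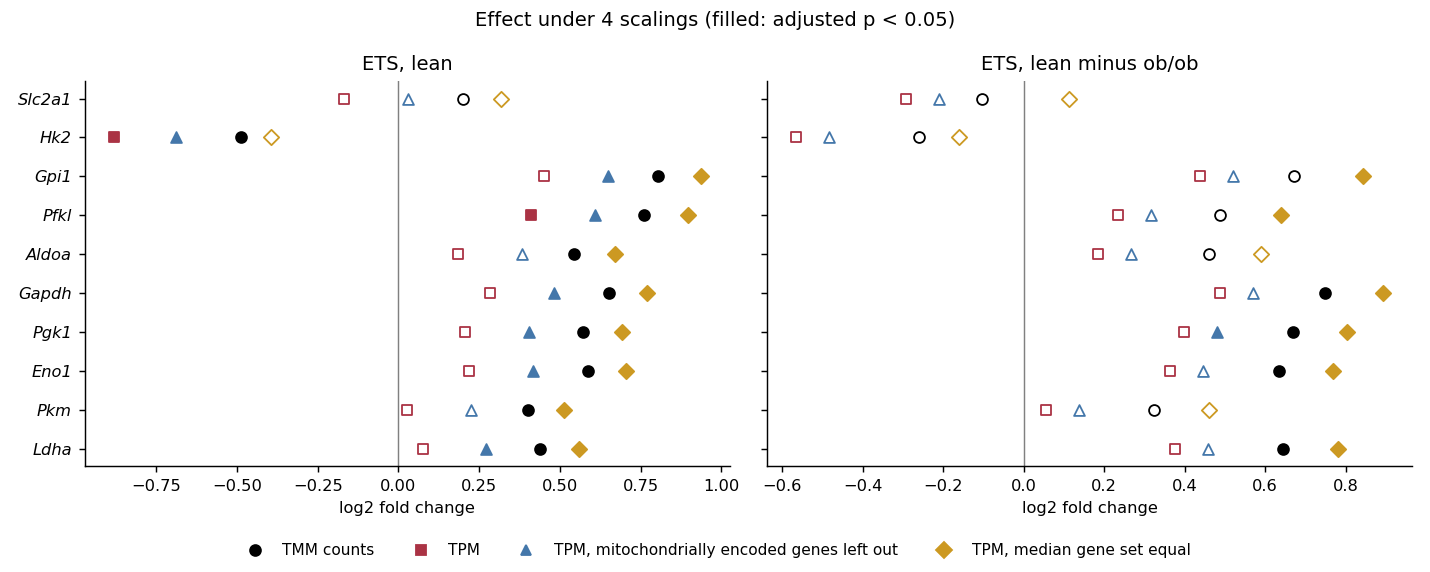
Log2 fold change of the 10 genes (x axis) for ETS in lean tumors and for the difference lean minus ob/ob under 4 scalings; filled symbols have an adjusted p under 0.05. TPM (squares) lies to the left of TMM-scaled counts (circles) for each gene, and Slc2a1 changes sign between scalings in both panels.

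Ratios of 2 genes within a tumor do not depend on that scaling. For each member with a sister gene for the same reaction, the ratio of TPM was compared by an exact two-sided permutation test, 24 tests in all, with a smallest possible p of 0.0286. None of the 24 had an adjusted p under 0.05, and 9 had complete separation of the groups, at the lowest value this design allows (p = 0.0286, adjusted 0.0762, exact permutation test). Hk2 to Hk1, the hexokinase of most tissues, had ratios of 0.494, 0.647, 0.964 and 0.578 in lean tumors before therapy and of 0.211, 0.157, 0.338 and 0.317 after ETS. In obese tumors it stood at 0.363, 0.280, 0.371 and 0.392 before and at 0.205, 0.192, 0.176 and 0.228 after ETS, so that both hosts had lower ratios after ETS in every tumor. Hk1 itself rose in both, by 0.88 ± 0.14 (SE; adjusted p = 0.000152) in lean and 0.57 ± 0.14 (SE; adjusted p = 0.00393) in obese tumors on the log2 scale.

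Ldha to Ldhb, whose subunit favours the step from lactate to pyruvate, went from 9.58, 9.63, 10.2 and 9.79 to 4.88, 6.35, 5.34 and 5.87 in lean tumors, with no overlap. Ldhb itself rose there by 1.25 ± 0.19 (SE; adjusted p = 0.000118) on the log2 scale, and in obese tumors the ratios overlapped (8.96, 6.93, 7.03 and 8.75 before, 4.67, 3.93, 5.31 and 9.68 after ETS). Slc2a1 to Slc2a3, a neuronal and immune glucose transporter, was higher in every obese than in every lean tumor, both before therapy (11.4, 9.16, 10.4 and 12.7 in lean, 20.4, 15.1, 17.5 and 17.8 in obese) and after ETS (12.1, 11.6, 9.98 and 9.47 and 17.8, 14.9, 18.4 and 32.7). Its 4 values after ETS included 32.7 in obese tumor 4, and the other 3 still lay above all lean ones. Aldoa to Aldoc had group geometric means of 98.4 in lean and 56.0 in obese pre-therapy tumors, Pfkl to Pfkp 2.70 in lean and 1.52 in obese ETS tumors, both without overlap, and Eno1 to Eno2 overlapped in all 4 comparisons.

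**Figure D4:**
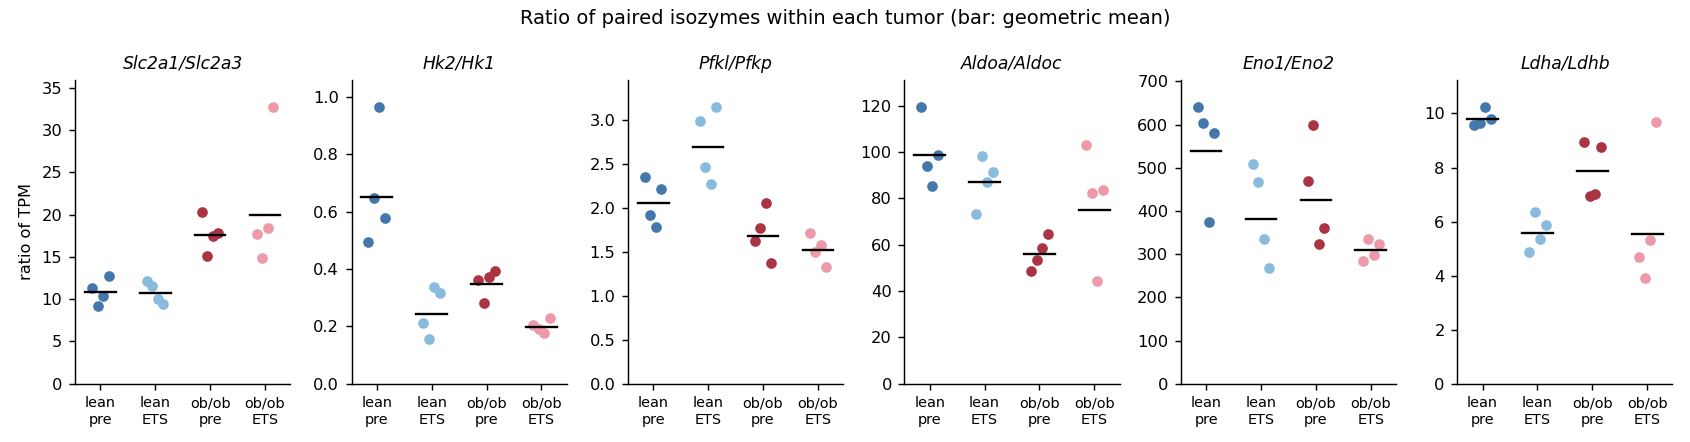
Ratio of the TPM of 2 genes for the same step (y axis, linear from 0) in each of the 16 tumors, tumors 1 to 4 from left to right, with the geometric mean as a bar. For Hk2/Hk1 every ETS tumor lies below every pre-therapy tumor of its host, with geometric means of 0.650 and 0.244 in lean and of 0.349 and 0.199 in ob/ob tumors.

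Most other enzymes of the pathway also rose in lean tumors after ETS. Of 18 listed, 11 were tested, and 9 rose and 1 fell, with a median log2 fold change of 0.74 (on log2(TPM + 1), 5 rose and 1 fell, with a median of 0.36). Of all tested genes, 21.0% rose and 22.7% fell (1351 and 7281 of 16209 on log2(TPM + 1)). Tpi1 and Pgam1, which complete the chain between Aldoa and Eno1, rose by 0.60 ± 0.15 (SE; adjusted p = 0.00515) and 0.44 ± 0.13 (SE; adjusted p = 0.0122), the neuronal enolase Eno2 by 1.06 ± 0.19 (SE; adjusted p = 0.000512) and the brain aldolase Aldoc by 0.74 ± 0.18 (SE; adjusted p = 0.00438). Pfkm (1.01 ± 0.12 SE, adjusted p = 1.46e-05), the muscle phosphofructokinase, Eno3 (0.81 ± 0.23 SE, adjusted p = 0.0101), the muscle enolase, and Hkdc1 (0.72 ± 0.21 SE, adjusted p = 0.0118) rose as well, while Pfkp did not pass (0.22 ± 0.14). Skeletal muscle markers summed to 205 and 296 TPM in lean ETS tumors 2 and 1, to 238 TPM in lean pre-therapy tumor 2 and to 443 TPM in obese ETS tumor 2, against at most 61.8 TPM in the other tumors, and their part in these values was not tested.

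Hk3, a hexokinase of myeloid cells, was the exception: it fell in lean tumors, with a log2 fold change of -3.42 ± 0.61 (SE; adjusted p = 0.000651), and rose in obese ones, with 2.38 ± 0.61 (SE; adjusted p = 0.00706). Its TPM was 17.8 to 39.6 before and 0.389 to 3.04 after ETS in lean tumors and 0.466 to 2.02 and 2.46 to 10.6 in obese tumors, with the 4 groups in the same order as by their medians of the macrophage markers above, whose part in the result was not tested. In obese tumors only Hk1 and Hk3 of the 11 were called after ETS, where 40.1% of all tested genes were. Before therapy 9 of the 11 were higher in obese tumors, among them Aldoc (1.21 ± 0.18 SE, adjusted p = 0.000202), and Hk3 was lower (-4.68 ± 0.66 SE, adjusted p = 0.000164). Of all tested genes, 13.3% were higher in obese tumors before therapy. After ETS none of the 11 was called between hosts by edgeR, against 5.61% of all tested genes, and 2 had an unadjusted p under 0.05.

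The counts for neighbouring routes stand beside the 43.7% of all tested genes called in lean and 40.1% in obese tumors. On log2(TPM + 1), 1351 of the 16209 tested genes rose and 7281 fell in lean tumors after ETS. Of 9 genes of glycogen metabolism, 7 rose in lean tumors after ETS (2 rose and 2 fell on log2(TPM + 1)), with log2 fold changes of 3.37 ± 0.56 (SE; adjusted p = 0.000361) for Pygm, the muscle glycogen phosphorylase, and 1.08 ± 0.33 (SE; adjusted p = 0.0164) for its liver counterpart Pygl. In obese tumors Pygm alone rose (1.87 ± 0.52 SE, adjusted p = 0.0122), where muscle markers were high in ETS tumor 2 alone, and their part was not tested. Of 8 pentose phosphate genes, lean tumors had 2 higher and 1 lower after ETS, a share near that of all genes (1 and 5 on log2(TPM + 1)), obese tumors had 3 higher and 2 lower, and Pgls rose in both (0.95 ± 0.18 SE, adjusted p = 0.000809 and 0.54 ± 0.18 SE, adjusted p = 0.0259). Of 17 tested genes that handle lactate and pyruvate, 8 rose and 1 fell in lean tumors (2 and 2 on log2(TPM + 1), where Dlat turned from 0.27 to -0.11). Pdk2, a kinase that switches pyruvate dehydrogenase off, rose in both hosts, by 2.24 ± 0.25 (SE; adjusted p = 9.88e-06) in lean and 1.82 ± 0.24 (SE; adjusted p = 6.99e-05) in obese tumors, and its host difference was not called. Bsg, the chaperone of lactate transporters, rose in lean tumors by 1.06 ± 0.19 (SE; adjusted p = 0.000549), with a called host difference (0.85 ± 0.27 SE, adjusted p = 0.0417), where none of the 17 passed on log2(TPM + 1). Before therapy 11 of the 17 were higher in obese tumors, among them Slc16a3, the lactate exporter MCT4 (0.70 ± 0.20 SE, adjusted p = 0.0169), and after ETS Slc16a1 alone (0.60 ± 0.15 SE, adjusted p = 0.0332). Of all tested genes, 13.3% were higher in obese tumors before therapy, and 5.61% were called between hosts after ETS.

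Of 10 tested regulators, 3 were called in lean tumors after ETS, and all 3 fell, against 22.7% of all tested genes lower. On log2(TPM + 1) 6 fell, where 7281 of the 16209 tested genes did. Before therapy 3 were lower in obese tumors and none was higher, Pfkfb3 (-0.49 ± 0.17 SE, adjusted p = 0.0457), Pfkfb4 (-0.64 ± 0.21 SE, adjusted p = 0.0325) and Mlxip (-0.41 ± 0.10 SE, adjusted p = 0.00650), where 26.3% of all tested genes were called. The log2 fold change was -0.80 ± 0.22 (SE; adjusted p = 0.00840) for Myc, a transcription factor that drives growth and glycolysis genes, -0.75 ± 0.21 (SE; adjusted p = 0.00930) for Pfkfb4, which sets the level of an activator of phosphofructokinase, and -0.40 ± 0.10 (SE; adjusted p = 0.00447) for Mlxip, a glucose-sensing transcription factor. Myc fell in obese tumors too (-0.71 ± 0.22 SE, adjusted p = 0.0179). Epas1, which encodes a hypoxia-inducible factor subunit also found in endothelium, rose in obese tumors (0.83 ± 0.20 SE, adjusted p = 0.00444). There 4 of 5 endothelial, 7 of 7 fibroblast and 5 of 8 macrophage markers rose as well, and their part was not tested. In the host difference 4 of the 10 regulators were called, Epas1, Pfkfb3, Mlxip and Pfkfb4, each with the lower value in lean tumors. On log2(TPM + 1) 4 were called lower too. Over all tested genes, 1635 were called lower in the host difference, and 2239 on log2(TPM + 1). Epas1 was also called higher in obese than in lean tumors after ETS. Hif1a was not called in lean (0.28 ± 0.12) or obese (-0.10 ± 0.12) tumors. Among 4 tested glucose transporters besides Slc2a1, Slc2a8 rose in both hosts, by 1.19 ± 0.16 (SE; adjusted p = 5.01e-05) and 0.52 ± 0.16 (SE; adjusted p = 0.0173), and Slc2a3 in neither (0.24 ± 0.17 and 0.011 ± 0.17). Of 6 gluconeogenesis genes 2 were tested, and in both hosts Pck2 fell (log2 fold change -0.84 ± 0.25 for lean and -0.84 ± 0.25 for obese tumors) and G6pc3 rose (0.79 ± 0.19 and 0.75 ± 0.19).

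Hypoxia targets outside glycolysis were read beside the 10 genes because several of the 10 share that regulation. All 15 were tested. Of all tested genes, 13.3% were higher in obese tumors before therapy and 21.0% rose in lean tumors after ETS (1127 and 1351 of 16209 on log2(TPM + 1)). In obese tumors 40.1% were called after ETS (3333 lower on log2(TPM + 1), 2981 on median-centred TPM), and 5.61% were called between hosts after ETS. The host difference passed with the higher value in lean tumors for 6.37%. On log2(TPM + 1) this held for 228 genes, on median-centred TPM for 3424, and with mitochondrially encoded genes left out of the counts for 881. Before therapy 11 of them were higher in obese tumors, with a median log2 difference of 1.11 (6 and 0.93 on log2(TPM + 1)), led by Ankrd37 (2.35 ± 0.40 SE, adjusted p = 0.000681), the growth factor Vegfa (1.68 ± 0.41 SE, adjusted p = 0.00728) and Ddit4 (1.61 ± 0.30 SE, adjusted p = 0.00117). In lean tumors 5 rose after ETS (1 on log2(TPM + 1)), among them the carbonic anhydrase Car9 (1.13 ± 0.29 SE, adjusted p = 0.00613) and the mitophagy receptor Bnip3 (0.71 ± 0.24 SE, adjusted p = 0.0256), and in obese tumors edgeR called 0 (2 lower on log2(TPM + 1) and on median-centred TPM), nor were any called between hosts after ETS. Unadjusted p-values were under 0.05 for 2 of the 15 in obese tumors and for 3 after ETS. The host difference passed for Higd1a (0.89 ± 0.29 SE, adjusted p = 0.0476), Ddit4 (1.51 ± 0.41 SE, adjusted p = 0.0219) and Ankrd37 (1.77 ± 0.55 SE, adjusted p = 0.0394), each with the higher value in lean tumors, but 0 of the 15 passed on log2(TPM + 1), 5 on median-centred TPM and 2 with mitochondrially encoded genes left out of the counts. These comparisons share tumors with one another as those of the 10 genes do.

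**Figure D5:**
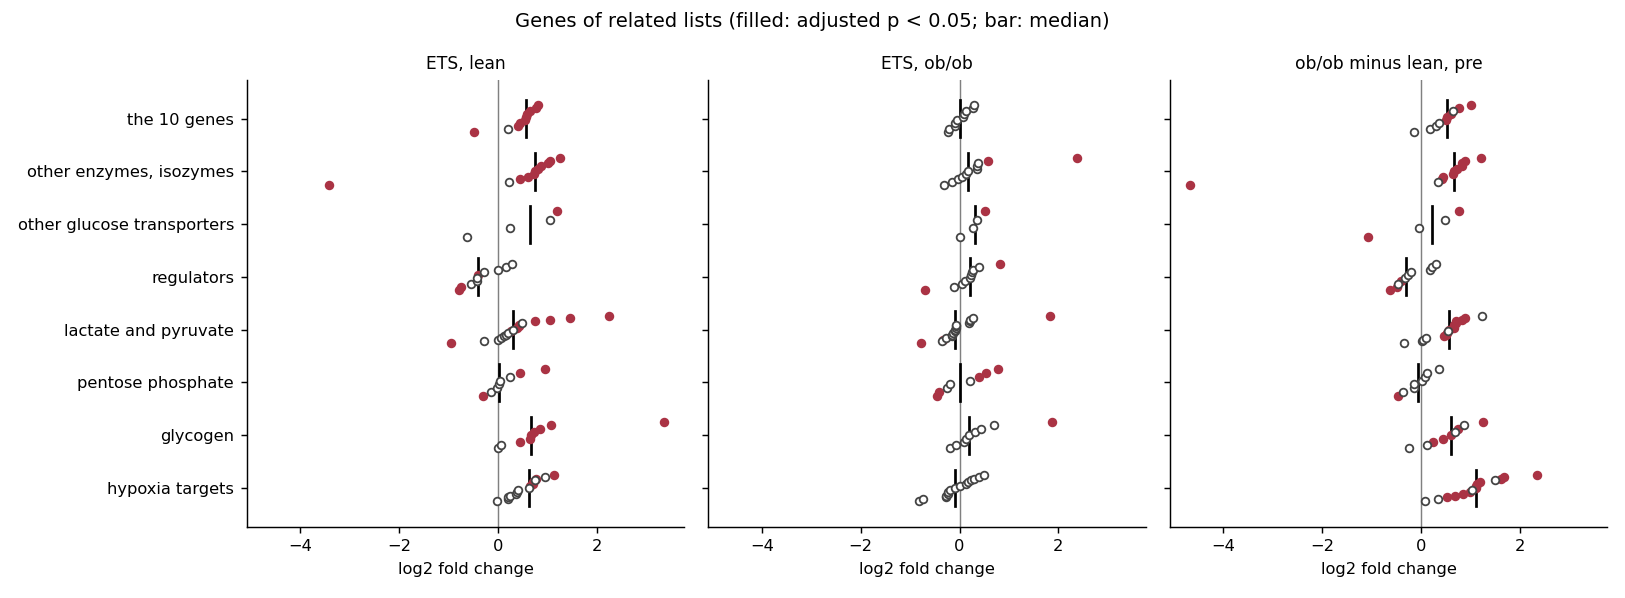
Log2 fold change of each tested gene (x axis) in the 10 genes and 7 related lists for ETS in lean tumors, ETS in ob/ob tumors and ob/ob minus lean before therapy; filled points have an adjusted p under 0.05 and the bar is the median of the list. The 10 genes have medians of 0.56, 0.015 and 0.52, hypoxia targets of 0.62, -0.088 and 1.11, and the lowest point, in the list of other enzymes, is Hk3.

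Of 10 other genes in use as references, 3 rose and 3 fell in lean tumors after ETS (0 and 5 on log2(TPM + 1)). Among all tested genes, 21.0% rose and 22.7% fell there (1351 and 7281 of 16209 on log2(TPM + 1)). Gapdh rose there by the values above, while the log2 fold change of Actb was -1.06 ± 0.17 (SE; adjusted p = 0.000237) and that of B2m, a light chain of the major histocompatibility complex that immune cells also express, was -1.89 ± 0.25 (SE; adjusted p = 4.50e-05). The ratio of Gapdh to Actb in TPM, a pair chosen after the values were seen, was 3.33, 2.15, 2.28 and 2.17 in lean tumors before therapy and 8.26, 14.0, 6.11 and 6.56 after ETS. In obese tumors it was 5.90, 4.76, 5.23 and 6.67 and 6.46, 6.28, 5.05 and 5.83, so the groups separated in lean tumors and overlapped in obese tumors. An exact two-sided permutation test over 4 comparisons gave p = 0.0286 in lean tumors, the smallest possible, and 0.0571 after adjustment, and supports nothing for a pair chosen in this way. All 8 proliferation genes fell in both hosts, Mki67 among them, whose log2 fold change was -1.62 ± 0.31 in lean tumors and -1.70 ± 0.31 in obese ones. Of all 16209 tested genes, 22.7% fell in lean tumors and 3063 fell in obese tumors.

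Across the 16 tumors, most of the 10 genes varied together. Pearson's r of log2 CPM with the mean of all 10 was 0.90 to 0.96 for Gpi1, Aldoa, Gapdh, Pgk1, Eno1, Pkm and Ldha, 0.73 for Slc2a1, 0.72 for Pfkl and -0.22 for Hk2. These values share libraries and group differences, and each gene is part of the mean it is compared with. With the group means removed, a description over the same 16 tumors, pairs ran from r = -0.058 (Hk2 and Eno1) to 0.95 (Pgk1 and Ldha). Gpi1 and Gapdh had r = 0.94, Pfkl and Gapdh 0.52 and Slc2a1 and Pfkl 0.34. Hk2 then had r = 0.24 with Gpi1 and 0.69 with Slc2a1, against -0.28 and 0.23 with the group means kept. Of 9585 genes with a mean of at least 10 CPM, the 5 most like the mean of the 10 genes were Gm10358, Gm13292, Gm12671, Gm10481 and Gm5537 (r = 0.97 each), all of them copies of Gapdh or Pgk1 by sequence. Copies also came first for Gapdh, Pgk1, Eno1 and Pkm, and a Gapdh copy, Gm14760, for Gpi1. With the 42 copies among these genes set aside, a step chosen after seeing this, the first 5 were Ppme1 (r = 0.96), Grhpr (0.95), Bsg (0.94), Vhl (0.94) and Vdac1 (0.94). Single members were most like Ndrg1, a hypoxia target, for Slc2a1 (r = 0.97), Ets1 for Hk2 (0.915), Ndfip1 for Pfkl (0.96), Gmppa for Aldoa (0.95) and Pgk1 for Ldha (0.95).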

How the data were processed

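Per the labels and the methods, RNA of whole tumors was extracted with Trizol, made into stranded mRNA libraries and sequenced in read pairs. The authors trimmed reads with Trimmomatic, aligned them to mm10 with HISAT2 2.1.0 and assembled and quantified them with StringTie 2.1.3b. They deposited, per gene and tumor, a read count, FPKM (16 columns, not used here) and TPM. How reads with several alignments and strand were counted is not given in the sources used here. As in the study, a gene entered the fit only if every tumor had at least 1 read of it, which dropped 29568 genes and kept 16209. Counts of all 16 tumors were scaled by TMM and fitted by group with edgeR 4.0.16 (robust quasi-likelihood, R 4.3.3), and p-values were adjusted after Benjamini and Hochberg across the genes tested; the common biological coefficient of variation was 0.233. The fit was tested on simulated data. Pairs of tumors of 1 group differed by more than counting noise, with r from 0.970 to 0.992. Ratios were tested with scipy 1.17.1, and TPM was fitted with limma 3.58.1 on log2(TPM + 1). Alternatives were DESeq2 1.42.0, limma-voom, edgeR's exact test, other filters and scalings, a replicate block and each tumor left out. Likeness was searched among genes of at least 10 CPM. Copies were found with blastn. The members and lists were chosen with earlier results of these data known. All 10 members are described. For related lists the genes named are called ones with the largest changes or counterparts of a member, and values are given for uncalled ones. At 47199949 counts or more per tumor the spread between tumors limits the precision.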

Additional observations from a re-analysis of the deposited data

Results flagged for a closer look

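In 2 of the 40 groups of 4 tumors examined (10 genes, 4 groups), 1 tumor lay far from the other 3 for the spread of its group, as chance alone does in about 1 in 20 groups. Aldoa stood at 6413 CPM in lean ETS tumor 2, against 5021 to 5237 CPM in the other 3, and its effect of ETS in lean tumors was 0.45 on the log2 scale at the lowest when each lean tumor was left out in turn. Gapdh stood at 5483 CPM in lean pre-therapy tumor 1, against 3840 to 4049 CPM in the others, and its effect lay between 0.56 and 0.78 in the same fits. In 4 genes the effect of ETS differed between hosts by the test of the difference itself, lean minus obese, with values of 0.75 for Gapdh, 0.67 for Pgk1, 0.65 for Ldha and 0.63 for Eno1 on the log2 scale. The adjusted p-values (edgeR) were 0.0330, 0.00960, 0.0216 and 0.0435, and the 4 values were between 0.36 and 0.49 without a call on log2(TPM + 1).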

How the results depend on the processing

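The number of the 10 genes called in lean tumors after ETS was 7 to 9 when single tumors were left out. It was 2 on log2(TPM + 1) and on log2(TPM + 0.1), where 8632 and 8679 of all tested genes were called. The host difference gave 0 calls on both TPM scales, against 2467 and 2447 over all genes. It gave 1 with mitochondrially encoded genes left out of TPM, and 1 to 6 when single tumors were left out. It fell to 1 without lean pre-therapy tumor 2 and to 2 without each of lean pre-therapy tumors 3 and 4, lean ETS tumors 1 and 2, obese pre-therapy tumors 1 and 4, and obese ETS tumors 1, 2 and 3. Gpi1 joined the calls without lean pre-therapy tumor 1 or obese ETS tumor 4 (adjusted p = 0.0420 and 0.0280), and Pkm without the former (0.0455). The comparison before therapy gave 8 calls with limma-voom and 5 to 7 when tumors were left out, and obese tumors after ETS gave 0 in every fit. After ETS the comparison of hosts gave 1 call with DESeq2 and 0 to 1 when tumors were left out, the call being Slc2a1 (1 without obese ETS tumor 2). Same-numbered tumors deviated together with correlations from -0.11 to 0.45, so the numbers were not taken to pair the tumors. With a replicate block the calls were 9, 0, 4, 6 and 1, Slc2a1 being added before therapy (0.64, adjusted p = 0.00755) and after ETS (0.66, adjusted p = 0.0237). The paired test of the isozyme ratios, with 0 calls, cannot give a p below 0.125 and says nothing of their stability.

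Among the 10 genes and the isozyme ratios, signs turned for values without a call, and among related genes the called Dlat turned on log2(TPM + 1) in lean tumors (-0.11 against 0.27). In lean tumors the Slc2a1 effect was -0.17 on both TPM scales. In obese tumors Pkm was -0.029 on both and Gpi1 -0.040 with limma-voom, and with single tumors left out Slc2a1 ran from -0.090 to 0.48, Gpi1 from -0.079 to 0.26 (both lowest without obese ETS tumor 4), Aldoa from -0.020 to 0.17 and Eno1 from -0.14 to 0.0072. The host difference of Slc2a1 was 0.22 with limma-voom, 0.11 on median-centred TPM, 0.12 without both obese tumors numbered 4, and -0.28 to 0.27 with single tumors left out. Between hosts after ETS, both TPM scales gave 0.047 for Aldoa, 0.080 for Pgk1, 0.049 for Eno1, 0.14 for Pkm and 0.0083 for Ldha, limma-voom gave -0.084 for Hk2 and -0.032 for Gapdh, and Pkm was 0.047 on TPM without mitochondrially encoded genes. Gapdh was -0.044 on median-centred TPM and -0.13 without both obese tumors numbered 4. With single tumors left out, the same comparison ran from -0.047 to 0.25 for Hk2, -0.062 to 0.013 for Pkm and -0.13 to 0.099 for Gapdh. Among log2 ratios, Slc2a1 to Slc2a3 in lean tumors was 0.0025 on counts, and Pfkl to Pfkp in obese tumors 0.10. With single tumors left out, Slc2a1 to Slc2a3 ran from -0.093 to 0.066 in lean and from -0.053 to 0.33 in obese tumors, and after ETS Aldoa to Aldoc ran from -0.37 to 0.036 and Ldha to Ldhb from -0.28 to 0.16 between hosts. The cause was not tested for any of these.

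Over all genes, the host difference gave 4566 calls on median-centred TPM against 2667, and the comparison of hosts after ETS gave 463 without a filter, 1564 with the exact test, 2054 with DESeq2, 109 with only the ETS groups in the fit, 1655 with a replicate block and 216 without both obese tumors numbered 4, against 910. Alternatives named median-centred TPM, TPM or TMM without mitochondrially encoded genes, both tumors numbered 4 left out and copies added were chosen after seeing the data.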
